A study of Homo sapiens with 14 samples.

Results

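Counts of 10 genes of the Hippo pathway were examined across 14 RNA-seq libraries of the cell line SK-N-BE2, long established from a neuroblastoma and carrying MYCN amplification. The genes were taken by name from the count tables, which held all 10 of them among 19923 protein-coding genes. They were the coactivator genes YAP1 and WWTR1 (which encodes TAZ), the DNA-binding partners TEAD1, TEAD2 and TEAD4, and the target or feedback genes CCN1, CCN2, AMOTL2, LATS2 and AJUBA. Batch 1 held wild-type cells that received water (H2O) or CoCl2 at 10 or 50 µM, a cobalt salt widely used to stabilise hypoxia-inducible factors. Batch 2 held untreated cells, either wild type (WT) or labelled TET2 knockout 1, 2 or 3. Each of the 7 groups had 2 libraries. TET2 encodes an enzyme that oxidises methylated cytosine in DNA. The labels give no exposure time for CoCl2, nor the method behind the knockouts, nor whether each number is a single clone, nor whether replicates were separate cultures. P-values therefore measure the spread between these libraries, which may be technical.

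The Hippo pathway is a kinase cascade that limits growth in response to cell contact, shape and stress. The kinases MST1 and MST2 (genes STK4 and STK3) activate LATS1 and LATS2, which phosphorylate YAP and TAZ and so keep them out of the nucleus. When the cascade is quiet, YAP and TAZ enter the nucleus and bind TEAD proteins, which cannot activate transcription well without them. Secreted matrix proteins such as CCN1 and CCN2 are then produced, along with proteins that feed back on the pathway, among them AMOTL2 and LATS2. Mesenchymal neuroblastoma cells are known for high YAP activity, while adrenergic cells tend to have little.

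TEAD proteins recognise the letters CATTCC, which read GGAATG on the opposite strand. The stretches just before the start sites of CCN2, YAP1 and AMOTL2 are shown because these genes held the letters upstream of a start site and were lower in the labelled knockouts. Sequences are from RefSeq (GRCh38.p14), written 5′ to 3′ on the strand of the gene, with each match in capitals. They run over the 250 bases that end at the base before the start site, which is position -1.
CCN2, minus strand, chr6:131951373-131951622: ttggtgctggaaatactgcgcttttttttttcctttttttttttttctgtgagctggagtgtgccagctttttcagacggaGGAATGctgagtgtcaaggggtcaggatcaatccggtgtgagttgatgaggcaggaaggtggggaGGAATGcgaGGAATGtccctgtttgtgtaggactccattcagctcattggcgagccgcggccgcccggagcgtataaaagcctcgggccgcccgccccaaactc
YAP1, plus strand, chr11:102110197-102110446: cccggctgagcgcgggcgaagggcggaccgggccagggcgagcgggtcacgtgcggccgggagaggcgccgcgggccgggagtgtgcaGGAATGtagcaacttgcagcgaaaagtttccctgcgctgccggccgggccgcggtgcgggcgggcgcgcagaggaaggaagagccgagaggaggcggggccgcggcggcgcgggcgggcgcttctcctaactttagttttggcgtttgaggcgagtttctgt
AMOTL2, minus strand, the start site at 134374447, chr3:134374448-134374697: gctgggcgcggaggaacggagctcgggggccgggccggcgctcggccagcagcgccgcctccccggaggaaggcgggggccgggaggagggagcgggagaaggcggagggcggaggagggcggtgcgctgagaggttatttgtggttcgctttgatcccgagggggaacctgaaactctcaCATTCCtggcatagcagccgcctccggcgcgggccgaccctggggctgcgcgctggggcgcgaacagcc
The CCN2 stretch held 3 matches, starting at positions -169, -104 and -95. YAP1 held 1 match, at -162, and AMOTL2 held 1, at -69. AJUBA had a match at -59 of its start site at 22976842, and the LATS2 window had a match at position 10, after the start. In RefSeq windows of 300 bases (250 before the start site and 50 from it on), 14% of 35116 promoters held the letters on either strand, and 0.128% held 3 or more matches as CCN2 did. The table had windows for 7 of the 10 genes, 11 windows in all, and 5 genes had a match, each in a single window. The other windows of AMOTL2 (start site at 134375417) and AJUBA (start site at 22982551) had no match. The 14% is a share of windows, so a count of genes is not on the same footing. The windows of WWTR1 and TEAD2 held none, and TEAD1, TEAD4 and CCN1 were not matched in the table. The letters TGANTCA, recognised by AP-1, stood in no window of these genes and in 7.71% of all promoters. The letters ACGTG, the core of the hypoxia response element, stood in the windows of YAP1, LATS2 and AJUBA and in 21.4% of all promoters. In YAP1 and LATS2, matches on opposite strands overlapped. A match is a stretch of letters, and no binding was measured here.

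Library totals ran from 31214128 to 39540111 counts for batch 1 and from 52095024 to 59263320 for batch 2. In batch 2, 77.3% to 80.5% of the counts from 1 to 10 were even, against 39.0% to 42.3% in batch 1, and the cause was not tested. Counts of the batches may therefore not be in the same unit, and a fit with batch 2 counts halved was run as an alternative. Levels are given as CPM, the counts per 1000000 of a library's total after TMM scaling within its batch. Values after ± are the SD over n = 2 libraries, and batches are set side by side with no test. Changes were tested within a batch with edgeR's quasi-likelihood test and Benjamini-Hochberg adjustment over all genes tested, and a gene is said to have risen or fallen where the adjusted p was under 0.05. TET2 itself was not lower in the labelled knockouts, at 67.8 ± 4.30 CPM in WT and 78.5 ± 2.71, 89.2 ± 2.67 and 71.8 ± 5.08 CPM in knockouts 1, 2 and 3. It rose in knockout 1 (log2 fold change 0.21, adjusted p 0.000664) and knockout 2 (0.40, adjusted p 3.86e-12). In knockout 3 no change was called (0.08, adjusted p 0.301). A direction in these libraries therefore holds only as far as their labels do. The adrenergic genes PHOX2A (338 to 431 CPM) and HAND2 (566 to 743 CPM) were abundant in all libraries, as was MYCN. All 10 Hippo genes passed the filter on low counts in batch 2. In batch 1, 7 of the 10 passed, and YAP1, CCN2 and LATS2 were below it.

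Per kilobase of exon, TEAD1 was the most abundant of the 10 genes in every group. It reached 26.7 ± 0.150 CPM per kilobase in H2O and 21.1 ± 1.41 in WT. TEAD4 followed in H2O, at 9.77 ± 0.478 CPM per kilobase, with TEAD2 at 1.61 ± 0.123. In WT the pair was closer, with TEAD2 at 8.51 ± 0.018 and TEAD4 at 6.66 ± 0.429 CPM per kilobase. The coactivator genes were below each of these TEAD genes in both controls. WWTR1 stood at 0.173 ± 0.0176 CPM per kilobase in H2O and 0.783 ± 0.00940 in WT. YAP1 stood at 0.0101 ± 0.00294 in H2O and 0.163 ± 0.0628 in WT, so that WWTR1 exceeded it 17.2-fold in H2O and 4.80-fold in WT on this scale. The first of these ratios rests on 5 YAP1 counts (3 and 2).

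The untreated control of batch 2 held more RNA of the coactivators and their targets than the H2O control of batch 1. CCN2 was at 0.0766 and 0.0504 CPM in the H2O libraries and at 6.89 and 7.76 CPM in WT. CCN1 was at 4.86 ± 0.0802 CPM in H2O and 32.2 ± 3.36 CPM in WT, and AMOTL2 at 0.913 ± 0.0992 and 4.86 ± 1.14 CPM. TEAD1 went the other way, at 285 ± 1.61 CPM in H2O and 226 ± 15.1 CPM in WT. These controls differ in batch, in the water given and in the version of the counting program, which cannot be told apart. In both H2O libraries 13 mitochondrial genes were at 0, and in the WT libraries none was. The totals behind CPM therefore cover different genes in the 2 batches, and the effect on these levels was not tested.

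**Figure D1:**
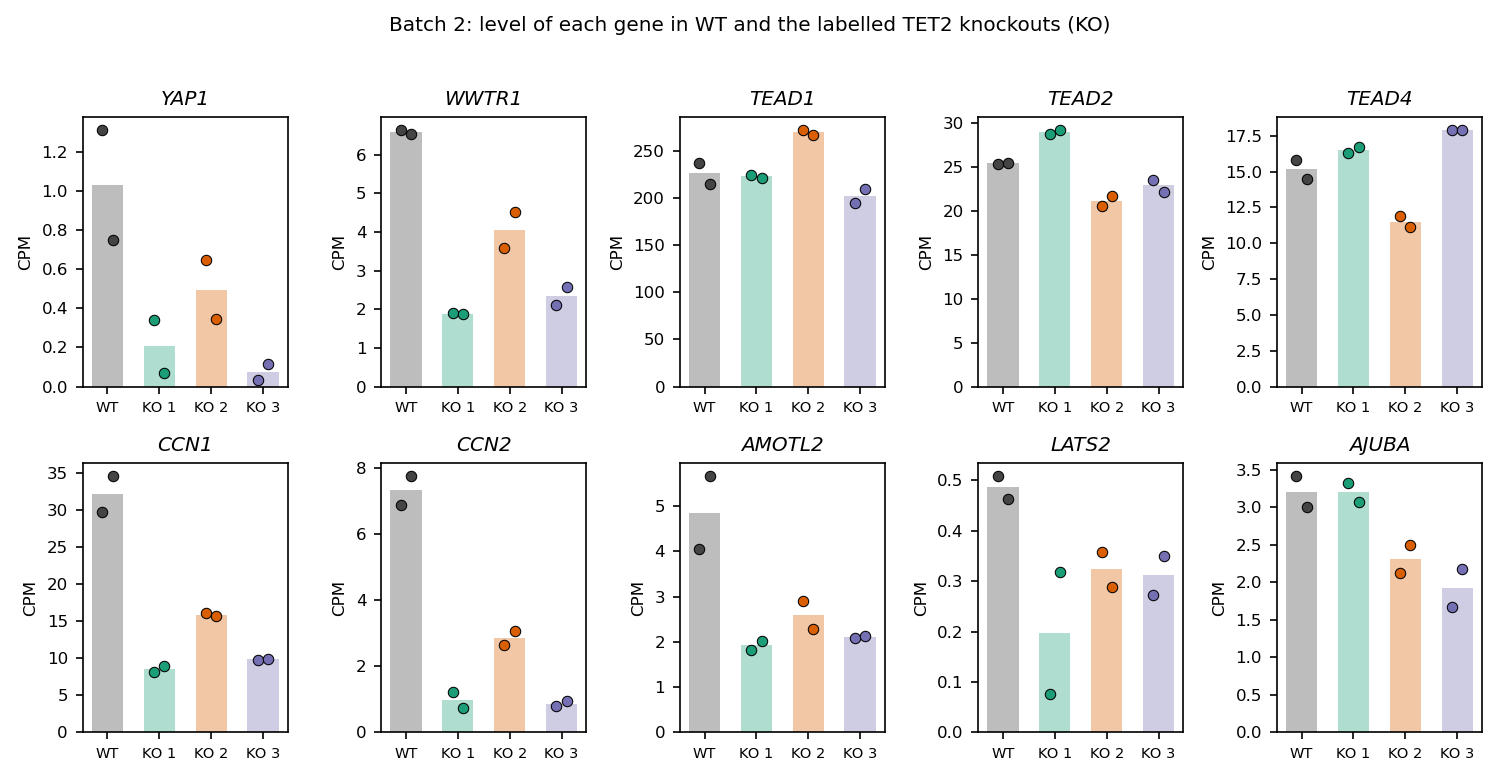
CPM (linear axes from 0) of each gene in WT and in labelled TET2 knockouts 1, 2 and 3 (KO). Points are the 2 libraries of a group and bars their mean. For 6 of the 10 genes (YAP1, WWTR1, CCN1, CCN2, AMOTL2, LATS2) all knockout points lie below both WT points.

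Batch 2 asked what differs in cells labelled as lacking TET2. The coactivators and the secreted targets fell in each labelled knockout, while the TEAD genes moved little and in mixed directions. Averaged over the 3 labelled knockouts, 5 genes fell (YAP1, WWTR1, CCN1, CCN2 and AMOTL2), while 11.4% of the 14061 genes tested were called lower. No member rose, against 7.54% of all genes called higher, and no member was higher at an unadjusted p under 0.05 or in DESeq2. The average call of YAP1 (log2 fold change -2.39, adjusted p 2.1e-07) was lost in a fit with 1 coefficient for all 6 knockout libraries (-1.99, adjusted p 0.138). The median log2 fold change was -0.99 over the 10 genes and -0.0018 over all genes tested. For 6 of the 10, every labelled knockout library lay below both WT libraries, as did 9.27% of all genes tested.

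YAP1 encodes the coactivator YAP. It lies on chromosome 11 (102110447 to 102233424, plus strand). It had 1.31 and 0.749 CPM in WT (72 and 42 counts), 0.342 and 0.0706 CPM in knockout 1, 0.646 and 0.344 CPM in knockout 2, and 0.0342 and 0.117 CPM in knockout 3. The WT libraries were the highest, and replicates differed widely within each group. The log2 fold change was -2.34 (SE 0.50, adjusted p 0.000102) in knockout 1 and -3.78 (SE 0.63, adjusted p 3.1e-07) in knockout 3. In knockout 2 it was -1.05 (SE 0.40, adjusted p 0.0384). YAP1 passed the filter through WT and knockout 2 alone. The call in knockout 1 was lost without its replicate 2 (log2 fold change -1.58, adjusted p 0.0622). That in knockout 2 was lost without WT replicate 1 (-0.60, 0.473), without its own replicate 2 (-0.67, 0.358), in DESeq2 (adjusted p 0.257) and under edgeR's older quasi-dispersion method (adjusted p 0.11).

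WWTR1 encodes TAZ, the paralog of YAP. The gene (chromosome 3, 149517235 to 149736714, minus strand) was measured at 6.64 and 6.53 CPM in WT, 1.90 and 1.87 in knockout 1, 3.59 and 4.52 in knockout 2, and 2.12 and 2.57 in knockout 3. The groups did not overlap with WT, and knockout 2 lay between WT and the other knockouts. The log2 fold change was -1.80 (SE 0.18, adjusted p 6.75e-17) in knockout 1, -0.70 (SE 0.15, adjusted p 9.27e-05) in knockout 2 and -1.50 (SE 0.18, adjusted p 1.58e-13) in knockout 3. Exons of YAP1 and WWTR1 overlap antisense transcripts over 9.95% and 9.45% of their length (AP000942.2 and WWTR1-AS1, GENCODE 29). The counting did not use strand, so reads of these partners are not separated.

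CCN2 encodes connective tissue growth factor, a secreted protein and a standard readout of YAP and TAZ. It lies on chromosome 6 (131948176 to 131951372, minus strand), and its upstream stretch with 3 TEAD letter matches is printed above. It was measured at 6.89 and 7.76 CPM in WT, 1.22 and 0.742 in knockout 1, 2.65 and 3.08 in knockout 2, and 0.786 and 0.936 in knockout 3. All labelled knockout libraries lay below WT. CCN2 was 7.54-fold lower in knockout 1 (log2 fold change -2.91, SE 0.21, adjusted p 2.51e-29). It was 2.56-fold lower in knockout 2 (-1.35, SE 0.16, adjusted p 3.36e-13) and 8.54-fold lower in knockout 3 (-3.09, SE 0.22, adjusted p 9.95e-31). An antisense transcript, AL133346.1, overlaps 8.34% of its exon bases.

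CCN1 encodes CYR61, a secreted relative of CCN2 that binds integrins. Levels of CCN1 (chromosome 1, 85580761 to 85583950, plus strand) were 29.8 and 34.6 CPM in WT, 8.21 and 9.0 in knockout 1, 16.1 and 15.7 in knockout 2, and 9.77 and 9.94 in knockout 3. Replicates were close, and knockout 2 again lay between WT and the others. The log2 fold changes were -1.90 (SE 0.09, adjusted p 2.64e-51), -1.02 (SE 0.08, adjusted p 2.18e-26) and -1.71 (SE 0.09, adjusted p 9.82e-47) in knockouts 1, 2 and 3.

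AMOTL2 encodes an angiomotin-like scaffold that holds YAP in the cytoplasm and is itself a YAP target. It lies on chromosome 3 (134355874 to 134375479, minus strand). It was measured at 4.06 and 5.67 CPM in WT, 1.83 and 2.03 in knockout 1, 2.91 and 2.28 in knockout 2, and 2.08 and 2.13 in knockout 3. The lower WT library was still above every labelled knockout library. AMOTL2 fell by 1.33 (SE 0.20, adjusted p 6.88e-09), 0.91 (SE 0.18, adjusted p 2.15e-05) and 1.21 (SE 0.19, adjusted p 8.13e-08) on the log2 scale in knockouts 1, 2 and 3.

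LATS2, the other feedback gene, encodes a kinase that phosphorylates YAP and TAZ. Its gene is on chromosome 13 (20973036 to 21061586, minus strand). With 28 and 26 counts in WT it was near the limit of detection, and it had 4 and 18 counts in knockout 1, 20 and 16 in knockout 2, and 16 and 18 in knockout 3. Every labelled knockout library was below WT, but no change passed the test. The average log2 fold change was -0.83 (SE 0.44, adjusted p 0.189), and a difference was not detectable at this depth. LATS2 passed the filter through WT, knockout 2 and knockout 3.

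AJUBA encodes a LIM protein that binds and inhibits LATS kinases. The gene (chromosome 14, 22971177 to 22982551, minus strand) was measured at 3.42 and 3.00 CPM in WT, 3.33 and 3.07 in knockout 1, 2.12 and 2.50 in knockout 2, and 1.67 and 2.18 in knockout 3. Knockout 1 overlapped WT, while knockouts 2 and 3 lay below it. AJUBA fell in knockout 3 (log2 fold change -0.74, SE 0.22, adjusted p 0.00666), a call lost without WT replicate 1 (-0.65, adjusted p 0.102) and without knockout 3 replicate 1 (-0.55, adjusted p 0.2). The values were -0.0048 (adjusted p 0.991) in knockout 1 and -0.48 (SE 0.21, adjusted p 0.0773) in knockout 2. The average over the knockouts was -0.41 (SE 0.17, adjusted p 0.0699, or 0.0452 without knockout 3 replicate 2).

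The TEAD genes did not follow the coactivators. TEAD1, the most abundant of them (chromosome 11, 12674421 to 12944737, plus strand), had 237 and 215 CPM in WT, 224 and 221 in knockout 1, 272 and 267 in knockout 2, and 195 and 209 in knockout 3. Knockout 2 was above WT, knockout 3 below, and knockout 1 within its range. TEAD1 rose in knockout 2 (log2 fold change 0.26, SE 0.04, adjusted p 1.15e-09). It fell in knockout 3 (-0.16, SE 0.04, adjusted p 0.000359), but not without WT replicate 1 (-0.091, adjusted p 0.195) or without knockout 3 replicate 1 (-0.11, adjusted p 0.0875).

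TEAD2, which is known for expression in early development (chromosome 19, 49340595 to 49362457, minus strand), had 25.3 and 25.4 CPM in WT, 28.8 and 29.2 in knockout 1, 20.6 and 21.7 in knockout 2, and 23.5 and 22.2 in knockout 3. It rose in knockout 1 (log2 fold change 0.19, SE 0.07, adjusted p 0.0486) and fell in knockout 2 (-0.26, SE 0.08, adjusted p 0.00468). The rise was lost in DESeq2 (adjusted p 0.0697), under edgeR's older method (0.0575), with no filter (0.0544) and without either WT or either knockout 1 library (adjusted p 0.157, 0.15, 0.109 and 0.208), and without either knockout 2 library (0.0571 and 0.0563). The fall was lost without knockout 2 replicate 1 (-0.23, adjusted p 0.0906). Exons of TEAD2 share 319 bases with CD37 on the opposite strand, 10.7% of its length.

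TEAD4 (chromosome 12, 2959330 to 3040676, plus strand) had 15.8 and 14.5 CPM in WT, 16.3 and 16.7 in knockout 1, 11.9 and 11.1 in knockout 2, and 17.9 in both libraries of knockout 3. It fell in knockout 2 (log2 fold change -0.40, SE 0.10, adjusted p 0.000642) and rose in knockout 3 (0.24, SE 0.09, adjusted p 0.0436). The rise was lost in DESeq2 (adjusted p 0.0731), under edgeR's older method (0.0525) and without any of the 2 WT or the 2 knockout 3 libraries (adjusted p 0.0509 to 0.312). Averaged over the labelled knockouts, the log2 fold changes of TEAD1, TEAD2 and TEAD4 were 0.025, -0.073 and -0.012, and none passed the test.

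**Figure D2:**
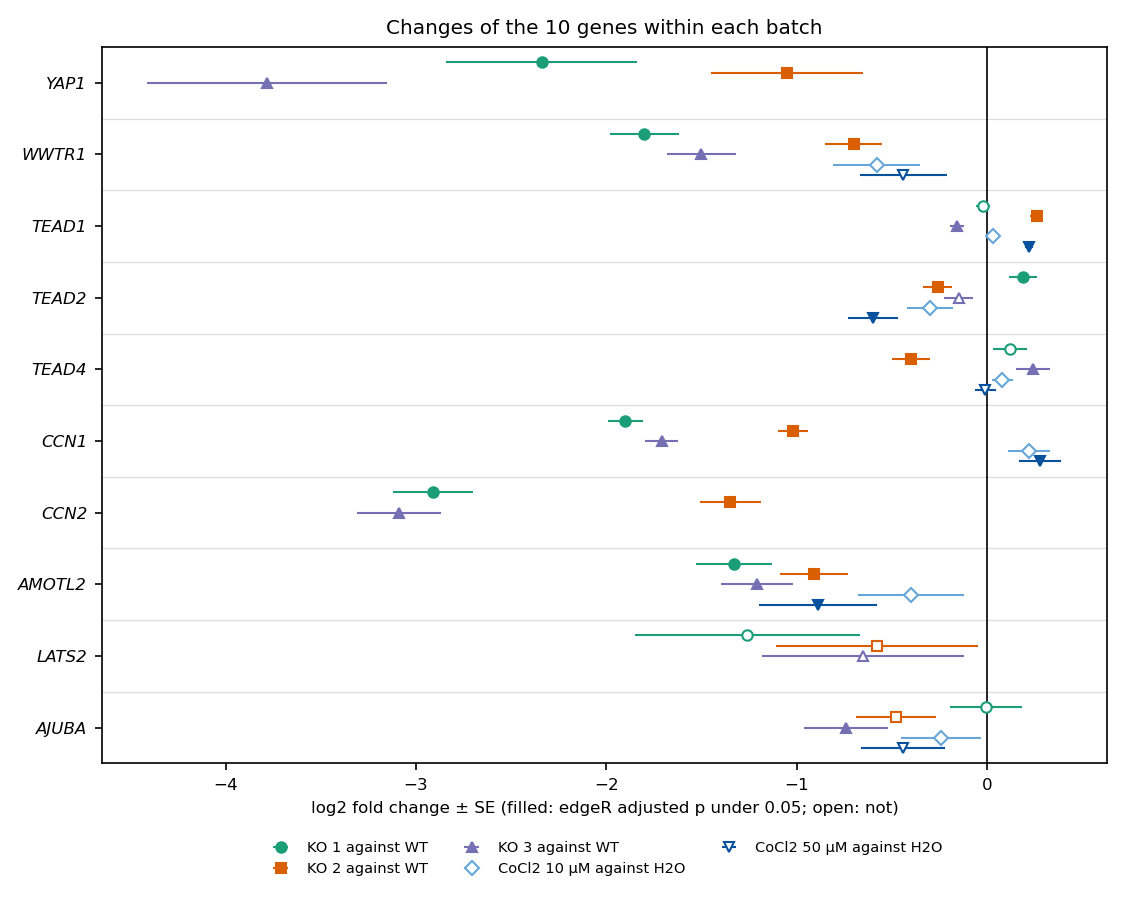
Log2 fold change with its SE (bars) of each gene in labelled TET2 knockouts 1 to 3 (KO) against WT and in CoCl2 at 10 and 50 µM against H2O. Filled symbols passed an edgeR adjusted p under 0.05. YAP1, WWTR1, CCN1, CCN2 and AMOTL2 lie left of 0 in each knockout, while TEAD1, TEAD2 and TEAD4 stay within 0.40 of 0 there.

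By knockout, 5 genes fell and 1 rose in knockout 1, where 9.72% of all genes were called lower and 7.79% higher. In knockout 2, 7 fell and 1 rose, against 14.3% and 12.0% of all genes. In knockout 3, 7 fell and 1 rose, against 9.96% and 8.90% of all genes. These comparisons share the WT libraries.

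The labelled knockouts also differed among themselves. An F-test on 2 degrees of freedom called 8 of the 10 genes different among the knockouts, all but AMOTL2 and LATS2, against 37.6% of all genes. Of the 7 genes with the highest mean in WT, 6 had the next highest in knockout 2 (YAP1, WWTR1, CCN1, CCN2, AMOTL2 and LATS2). The share of all genes with this order was not computed, so the count is a description of means. Of these genes, YAP1 (adjusted p 0.1), AMOTL2 (0.172) and LATS2 (0.486) were not called by edgeR between knockouts 2 and 1. Pairwise contrasts, added after the counts had been seen, called 6 genes between knockouts 2 and 1 (26.5% of all genes), 3 between knockouts 3 and 1 (8.30%) and 6 between knockouts 3 and 2 (34.2%). In knockout 2 against knockout 1, CCN2 was higher by 1.56 (SE 0.27, adjusted p 3.28e-07), CCN1 by 0.88 (SE 0.11, adjusted p 3.39e-13) and WWTR1 by 1.10 (SE 0.21, adjusted p 4.18e-06) on the log2 scale. In knockout 3 against knockout 2, the same genes were lower, with log2 fold changes of -1.74, -0.69 and -0.80 (adjusted p 2.02e-08, 2.35e-09 and 0.000457). YAP1 was also lower there (-2.73, SE 0.76, adjusted p 0.00224), but not without knockout 2 replicate 1 (-2.20, adjusted p 0.0979) or without knockout 3 replicate 1 (-2.05, adjusted p 0.0818). The YAP1 call in the F-test was lost without these same libraries (adjusted p 0.196 and 0.0722). The AJUBA call in the F-test was lost without knockout 1 replicate 1 (0.0947) and without knockout 3 replicate 1 (0.0956). Between knockouts 3 and 1 the genes called were TEAD1 (-0.14), TEAD2 (-0.34) and AJUBA (-0.74). TEAD1 was lost there without knockout 1 replicate 1 (adjusted p 0.0902) or knockout 3 replicate 1 (0.264). AJUBA was lost without knockout 1 replicate 1 (0.133) or 2 (0.0632) or knockout 3 replicate 1 (0.289).

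Other genes reported as YAP and TAZ targets were listed apart from the members. Of 18 listed genes, 17 passed the filter, and FOXF2 was at 0 in every library. Averaged over the labelled knockouts, 13 fell and none rose, also in DESeq2, and none was higher at an unadjusted p under 0.05. Among all genes in that average, 11.4% were called lower and 7.54% higher. The list's median log2 fold change was -0.65, against -0.0018 over all genes. CCDC80, a matrix protein gene, fell by 2.81 (SE 0.08, adjusted p 2.96e-94) on the log2 scale, from 34.4 ± 1.19 CPM in WT to 5.00 ± 1.24 (n = 6). Its fall in the knockouts was already known from an earlier result of these data. CRIM1, which encodes a membrane protein that binds growth factors, fell by 2.79 (SE 0.10, adjusted p 3.29e-75), and ANKRD1, which encodes an ankyrin-repeat cofactor and is among the most used YAP readouts, by 2.72 (SE 0.13, adjusted p 6.9e-51). ANKRD1 had 9.84 and 10.6 CPM in WT, 1.12 and 1.41 in knockout 1, 2.01 and 2.59 in knockout 2, and 1.06 and 1.56 in knockout 3. IGFBP3, an insulin-like growth factor carrier, fell by 1.63 (SE 0.05, adjusted p 5.55e-78), by as much as 2.51 in knockout 3 and as little as 0.51 in knockout 2. TGFB2 (-2.05), MYOF (-1.89) and AXL (-1.56), named after their values were seen, fell as well. DOCK5 and RBMS3, named after their values were seen, had average values of 0.093 and -0.0022 and did not pass the test. DOCK5 was the 1 gene of the list called higher in a single knockout, from 24.0 ± 2.97 to 29.1 ± 0.987 CPM in knockout 2 (log2 fold change 0.28, adjusted p 0.00177). That call was lost without WT replicate 2 (0.15, adjusted p 0.262) and without knockout 2 replicate 1 (0.24, adjusted p 0.0534). The fit with 1 coefficient for all knockout libraries called 6 of these 17 genes lower in place of 13, and IGFBP3 was not called in it (-1.38, adjusted p 0.373).

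**Figure D3:**
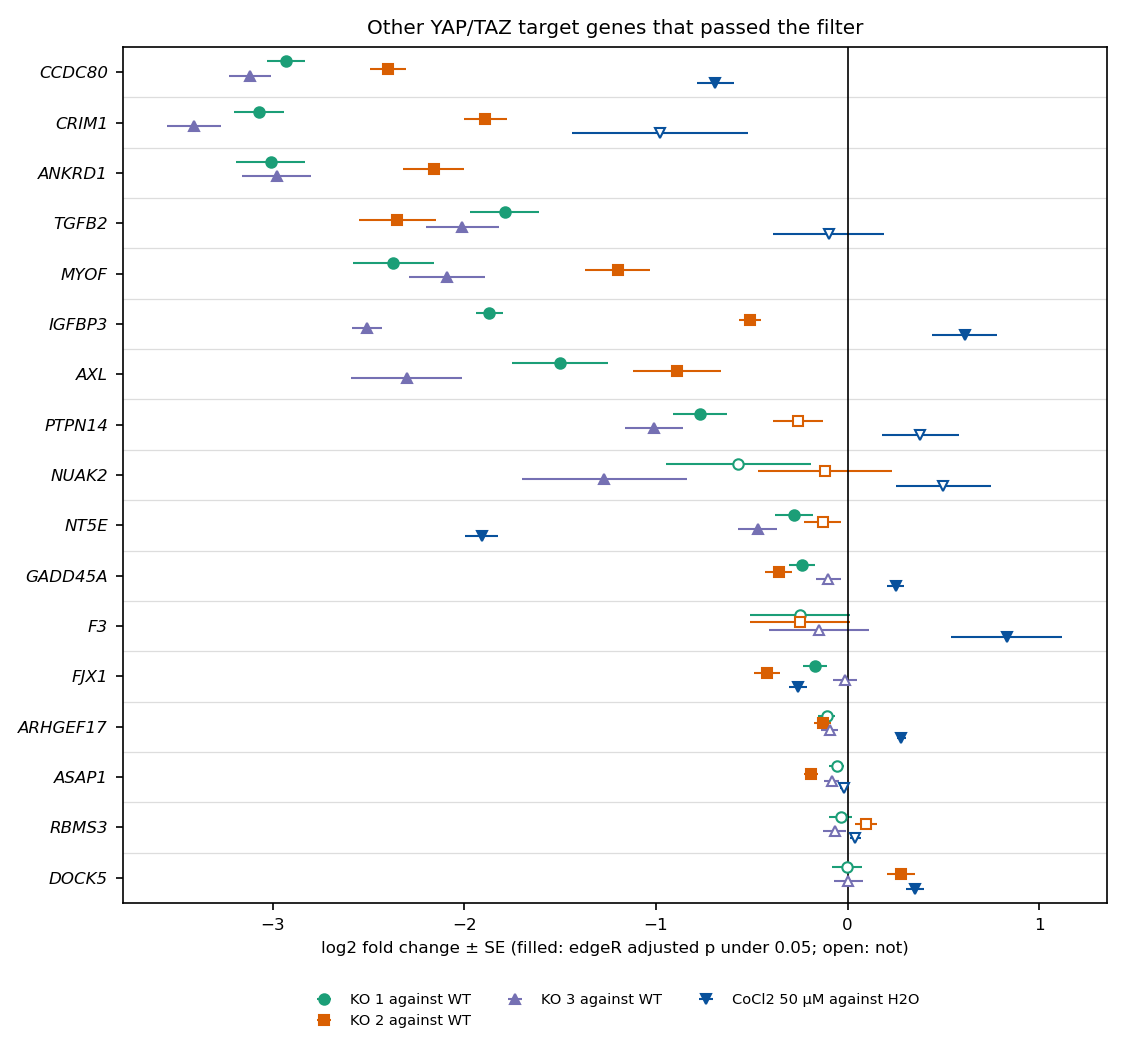
Log2 fold change with its SE (bars) of other YAP and TAZ target genes in labelled TET2 knockouts 1 to 3 (KO) against WT and in CoCl2 at 50 µM against H2O, ordered by the average over the knockouts. Filled symbols passed an edgeR adjusted p under 0.05. CCDC80, CRIM1 and ANKRD1 lie farthest left, with averages of -2.81, -2.79 and -2.72. ANKRD1, MYOF and AXL have no CoCl2 symbol because they were below the filter in batch 1.

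All 30 listed genes of the kinase cascade and its upstream regulators were tested. Averaged over the labelled knockouts, 5 fell and none rose, against 11.4% of all genes lower and 7.54% higher, with 2 higher at an unadjusted p under 0.05 and none higher in DESeq2. The median was -0.027. The average covers differences among the knockouts, since 0, 5 and 1 of the 30 rose and 7, 8 and 7 fell in knockouts 1, 2 and 3. Among all genes, 12.0% were higher and 14.3% lower in knockout 2. FAT1, an atypical cadherin gene named after its values were seen, had 55.8 ± 1.31 CPM in WT and 74.1 ± 2.76 CPM in knockout 2, where it rose by 0.41 (SE 0.05, adjusted p 8.41e-12) on the log2 scale. AMOT, the angiomotin scaffold that binds YAP, fell by 0.74 (SE 0.08, adjusted p 4.9e-16) and FRMD6, a FERM-domain activator of the cascade, by 0.50 (SE 0.05, adjusted p 2.17e-16). AMOTL1, an angiomotin relative, fell by 0.18 (adjusted p 1.26e-08) and the kinase gene TAOK3 by 0.26 (adjusted p 0.00161). TAOK3 was not called without WT replicate 2 (-0.22, adjusted p 0.0915), and the fit with 1 coefficient called 1 of the 30. The core kinase genes STK4 (-0.00037, adjusted p 0.997), STK3 (-0.10, adjusted p 0.463) and LATS1 (-0.062, adjusted p 0.302), and NF2, which encodes the upstream regulator merlin (0.0076, adjusted p 0.923), did not pass the test and are named as the core of the cascade. Among other TEAD genes and cofactors, TEAD3 (-0.11, adjusted p 0.52) and VGLL4, a TEAD-binding repressor (0.096, adjusted p 0.284), were tested, and in that average neither was called by edgeR or DESeq2, nor at an unadjusted p under 0.05. In knockout 2 alone, TEAD3 fell from 7.94 ± 0.213 to 5.07 ± 0.0846 CPM (-0.65, SE 0.14, adjusted p 6.73e-05). In knockout 3 its value was 0.29 (adjusted p 0.0797, unadjusted 0.0179), and that of VGLL4 in knockout 1 was 0.18 (adjusted p 0.0782, unadjusted 0.016). The other CCN family genes tested, CCN3 and CCN6, were not called by edgeR or DESeq2 in that average either, and none had an unadjusted p under 0.05.

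Some mesenchymal and endothelial markers fell with these genes in batch 2. Of 12 mesenchymal and fibroblast markers, 11 were tested and 6 fell in the average of the labelled knockouts, with none higher, against 11.4% of all genes lower and 7.54% higher. By knockout, 2, 0 and 2 of the 11 rose and 6, 6 and 7 fell in knockouts 1, 2 and 3. TWIST1, a transcription factor gene of mesenchyme named after its values were seen, rose from 60.0 CPM in WT to 71.9 in knockout 1 (adjusted p 2.23e-05) and 73.9 in knockout 3 (adjusted p 5.52e-07). The collagen-binding proteoglycan gene LUM, named likewise, rose from 23.5 to 30.8 CPM in knockout 3 (adjusted p 8.84e-06). The summed level of the list was 1536 to 1551 CPM in WT and 1019 to 1211 CPM in the knockouts. COL3A1, a fibrillar collagen gene, fell by 3.16 (SE 0.04, adjusted p 7.8e-154), POSTN, which encodes the matrix protein periostin, by 3.05 (SE 0.07, adjusted p 2.98e-103), FN1, which encodes fibronectin, by 2.07 (SE 0.03, adjusted p 2.53e-145) and COL1A1 by 0.74 (SE 0.05, adjusted p 6.95e-37). With 1 coefficient for all knockout libraries, FN1 (-1.94, adjusted p 0.107) and COL1A1 (-0.72, adjusted p 0.117) were not called. Of 10 endothelial markers, 7 fell, and their summed level was 39.0 and 40.0 CPM in WT and 17.9 to 22.1 CPM in the knockouts. CDH5, which encodes VE-cadherin, fell by 2.27 (SE 0.18, adjusted p 6.03e-25) and KDR, a VEGF receptor gene, by 2.71 (SE 0.25, adjusted p 2.71e-20). Schwann markers summed to 11.1 and 11.9 CPM in WT and 5.02 to 8.18 CPM in the knockouts, with SOX10 at 0 to 8 counts. Of the 3 tested, 1 fell in the average and none rose (median log2 fold change 0.029). It was ERBB3 (-1.02, adjusted p 3.46e-16), which was not called with 1 coefficient for all knockout libraries (-0.96, adjusted p 0.103). Of the 2 immune markers tested, none was called in the average. Immune markers summed to 7.71 to 16.8 CPM over batch 2, with CD3E at 0 in every library of that batch and PTPRC at 0 to 4 counts. Adrenergic markers summed to 9303 and 9514 CPM in WT, 9113 to 9332 in knockouts 1 and 3, and 7231 and 7336 in knockout 2. In bulk RNA, fewer cells of a type and less RNA per cell cannot be told apart. The part of these markers in the fall of the Hippo genes was not tested.

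Batch 1 asked what CoCl2 changes. At 10 µM none of the 7 genes tested was called, while 22.7% of the 13636 genes tested were. At an unadjusted p under 0.05, 3 were (CCN1 higher, WWTR1 and TEAD2 lower), and DESeq2 called none and had none at that unadjusted level. At 50 µM, 2 of the 7 rose and 2 fell, against 30.4% of all genes higher and 31.1% lower. A share of that size is close to the background. The called changes ran from -0.89 (AMOTL2) to 0.28 (CCN1) on the log2 scale. The median log2 fold change was -0.44 over the 7 genes and 0.002 over all genes tested. Between the doses, 1 of the 7 was called, against 52.8% of all genes.

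TEAD1 had 287 and 284 CPM in H2O, 291 and 293 at 10 µM, and 338 and 325 at 50 µM. Both 50 µM libraries were above all others. TEAD1 rose 1.16-fold at 50 µM (by 0.22 on the log2 scale, SE 0.02, adjusted p 7.25e-21) and was the gene that differed between the doses (0.18, SE 0.02, adjusted p 3.72e-16). TEAD2 went the other way, with 4.55 and 5.07 CPM in H2O, 3.76 and 4.01 at 10 µM, and 3.07 and 3.27 at 50 µM. It was 1.51-fold lower at 50 µM (log2 difference -0.60, SE 0.13, adjusted p 2.43e-05), and at 10 µM the value was -0.30 (SE 0.12, adjusted p 0.0516, or 0.0482 without H2O replicate 1). TEAD3 also fell at 50 µM (-0.75, SE 0.12, adjusted p 3.77e-08). TEAD4 had 23.0 and 21.5 CPM in H2O and 22.0 and 22.1 at 50 µM, which overlapped (log2 fold change -0.01, SE 0.06, adjusted p 0.889).

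Among the targets, CCN1 had 4.80 and 4.92 CPM in H2O, 5.47 and 5.84 at 10 µM, and 5.92 and 5.90 at 50 µM. It rose at 50 µM (by 0.28 on the log2 scale, SE 0.11, adjusted p 0.0195). That call was lost in DESeq2 (adjusted p 0.15), without H2O replicate 1 (0.0772) and without either 50 µM library (0.0652 and 0.0768). AMOTL2 had 0.843 and 0.983 CPM in H2O, 0.655 and 0.720 at 10 µM, and 0.512 and 0.476 at 50 µM. It fell at 50 µM (log2 difference -0.89, SE 0.31, adjusted p 0.00969), a change that rests on 33 and 39 counts against 16 and 17. It was not called in DESeq2 (adjusted p 0.109), without H2O replicate 2 (-0.77, 0.0865) or without 50 µM replicate 2 (-0.83, 0.0808).

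WWTR1 had 1.35 and 1.56 CPM in H2O, 1.11 and 0.849 at 10 µM, and 1.22 and 0.951 at 50 µM. The CoCl2 libraries were below H2O at both doses, but neither change passed the test, with log2 fold changes of -0.58 (SE 0.23, adjusted p 0.0514) and -0.44 (SE 0.23, adjusted p 0.0871). AJUBA had 1.48 and 1.59 CPM in H2O and 1.28 and 1.01 at 50 µM (a log2 value of -0.44, SE 0.22, adjusted p 0.0803). YAP1 had 3 and 2 counts in H2O, 3 and 3 at 10 µM, and 4 and 7 at 50 µM. CCN2 had 1 to 3 counts and LATS2 0 to 4 counts in each library of batch 1, so a change of these genes was not detectable at this depth. Tested with no filter, the YAP1 value at 50 µM was 1.32 on the log2 scale (adjusted p 0.176).

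**Figure D4:**
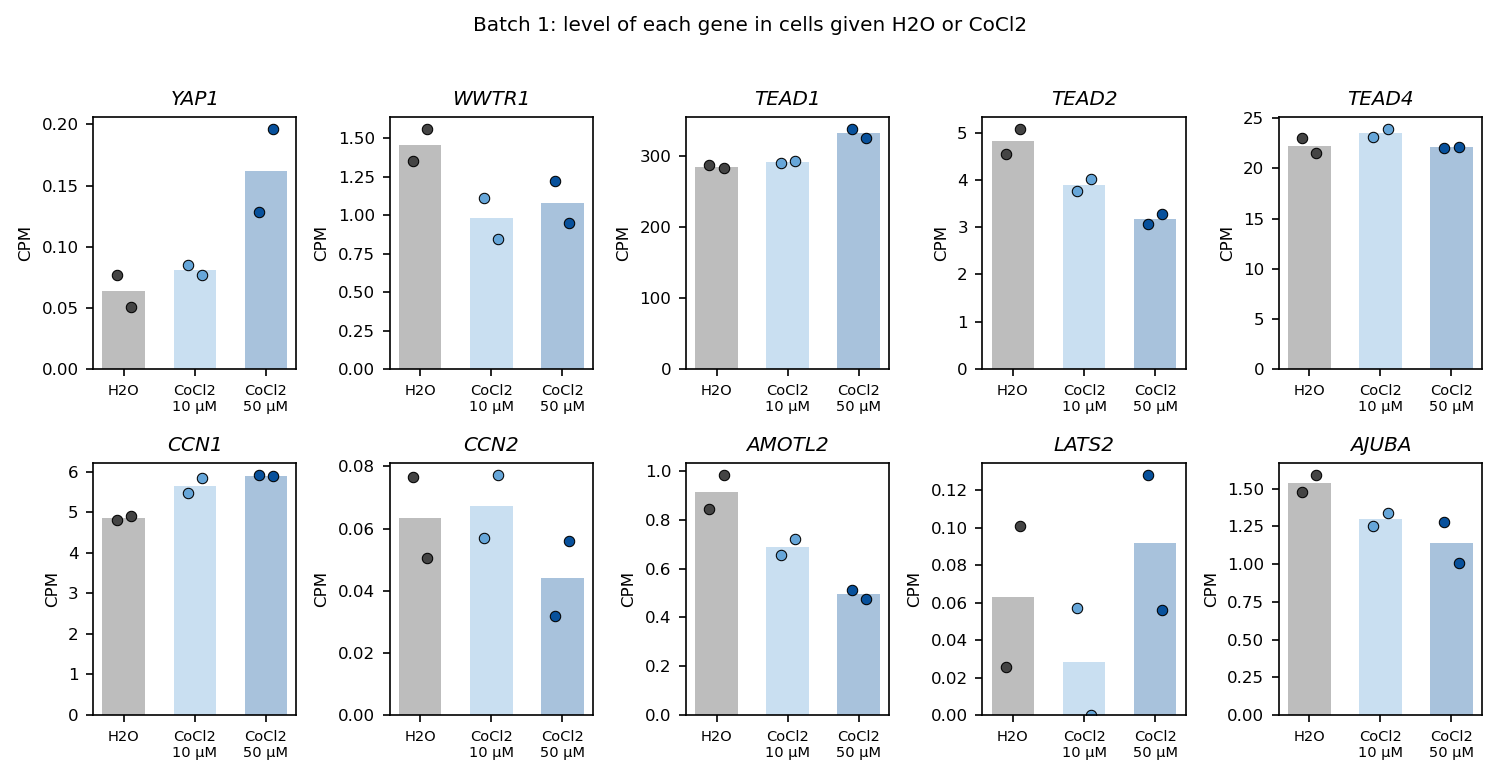
CPM (linear axes from 0) of each gene in cells given H2O or CoCl2 at 10 or 50 µM. Points are the 2 libraries of a group and bars their mean. TEAD1 is highest and TEAD2 and AMOTL2 lowest at 50 µM, and YAP1, CCN2 and LATS2 stay below 0.20 CPM.

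Of the other YAP and TAZ targets, 14 were tested in batch 1, and at 50 µM 5 rose and 3 fell (median 0.15, against 0.002 over all genes). These 8 are 57.1% of the list, against 61.4% of all genes called in either direction, so the share is near the background. NT5E, which encodes the ectoenzyme CD73, had 17.3 and 17.5 CPM in H2O, 14 and 13.9 at 10 µM, and 4.06 and 5.15 at 50 µM. It fell by 1.91 (SE 0.09, adjusted p 1.74e-49) on the log2 scale, and CCDC80 by 0.69 (SE 0.10, adjusted p 3.79e-10). ARHGEF17 rose by 0.28 (SE 0.02, adjusted p 1.59e-21) and DOCK5, a Rac exchange factor gene, by 0.35 (SE 0.05, adjusted p 7.3e-12). Of the 30 cascade genes, 7 rose and 13 fell at 50 µM (median -0.0096), or 66.7%, which is also near that background. MOB1A, which encodes the LATS coactivator MOB1, fell by 0.32 (SE 0.03, adjusted p 1.77e-20), the scaffold gene STRN by 0.30 (SE 0.03, adjusted p 3.81e-18), WWC2 by 0.32 (SE 0.04, adjusted p 9.35e-11) and the polarity gene SCRIB by 0.20 (SE 0.03, adjusted p 5.37e-09). Of the 10 mesenchymal markers tested at 50 µM, 3 rose and 4 fell (median -0.17). They summed to 1327 and 1334 CPM in H2O and 1673 and 1694 CPM at 50 µM. Most of that sum is VIM, which encodes the filament protein vimentin and rose from 1140 ± 3.38 to 1520 ± 12.7 CPM (adjusted p 6.44e-67). SNAI2 (0.61, adjusted p 3.55e-06) and FN1 (0.35, adjusted p 0.000179) rose as well. TWIST1 (-0.43, adjusted p 1.64e-28), LUM (-0.46, adjusted p 8.16e-11) and COL3A1 (-0.75, adjusted p 2.42e-05) fell. FN1 and COL3A1 are outside the naming rule at this dose and are given because they were named in batch 2. Of 5 endothelial markers tested 3 fell and none rose. These are 60.0% of those tested, against 61.4% of all genes called in either direction and 31.1% called lower. The endothelial list summed to 18.2 and 17.7 CPM in H2O and 11.3 and 10.9 CPM at 50 µM. The markers' part in the result was not tested.

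The genes whose pattern was most like those of WWTR1, CCN2 and YAP1 were sought by Pearson correlation of log2 CPM over the 14 libraries, each batch centred on its own mean, among 11798 genes. The points share libraries, groups and batches, so the values are descriptions. For CCN2 they were IFI16 (0.979), FBN1 (0.973), SASH1 (0.970), FN1 (0.958) and LOXL2 (0.956). For WWTR1 they were LTBP1 (0.944), SASH1 (0.939), SPATS2L (0.938), IL1R1 (0.936) and DYSF (0.932). SASH1 stood in both sets. For YAP1 they included EBF3 (0.932), PRPF39 (0.928), SLC8B1 (0.899) and ARHGAP42 (0.895). YAP1 and CCN2 had at most 7 counts in batch 1, so their patterns there are mostly counting noise.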

How the data were processed

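The deposited values are raw counts per gene, made by the authors with featureCounts from exons of the GENCODE 33 protein-coding genes (GRCh38), version 1.5.3 in batch 1 and 2.0.5 in batch 2, with no strand option, per the file headers. The submitters' processing notes name Trimmomatic 0.36, STAR 2.6.1d and Subread 1.5.3. Groups and replicate numbers came from the labels. From the deposited counts, each batch was fitted separately in edgeR 4.0.16 (R 4.3.3) with filterByExpr (count minimum 10), TMM scaling, a negative binomial dispersion of at least 0.0001 and the robust quasi-likelihood test, with 1 coefficient per group. Each SE is the ratio of a log2 fold change to the root of its F statistic. The test was run on simulated counts of the TET2KO_3 against WT comparison over 13861 genes, with 99 genes changed at each fold: 90.9% of the 1.5-fold and 96.0% of the 2-fold changes were recovered, with 18 false calls among 13663 unchanged genes. For CoCl2_50uM against H2O, over 13604 genes with 100 changed at each fold, these were 87.0%, 93.0% and 11 false calls among 13404. In these simulated counts all genes of a batch shared the same dispersion, and the excess of even counts in batch 2 was not imitated. The rates may therefore not hold for genes with low counts, such as YAP1 and LATS2. Alternatives were DESeq2 1.42.0, other scaling, no filter, an older dispersion method, a replicate block, halved counts and leaving out each library. The members, gene lists and tests were chosen with earlier results of these data known, and pairwise knockout contrasts were added after the counts were seen. Besides the 10 members, up to 4 genes per list and comparison were named, those called with the smallest adjusted p and at least 1 CPM, and the 5 genes most like YAP1, WWTR1 and CCN2. Some results that these rules cover are not reported here. Replicates differed by more than counting noise in every group (chi-square per gene 1.23 to 1.46 in batch 1 and 3.86 to 5.52 in batch 2). These values used the counts as deposited, with those of batch 2 not halved, so they are not comparable between batches.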

Additional observations from a re-analysis of the deposited data

Results flagged for a closer look

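The labelled knockouts differed from each other in the size or direction of the change from WT for 8 of the 10 genes, by the F-test of edgeR among knockouts 1, 2 and 3. The same test called 37.6% of all genes. The span between the highest and the lowest knockout, on the log2 scale, was 2.73 for YAP1 (adjusted p 0.00583) and 1.74 for CCN2 (adjusted p 7.61e-10). It was 1.10 for WWTR1 (3.31e-06), 0.88 for CCN1 (2.65e-14), 0.74 for AJUBA (0.0104) and 0.64 for TEAD4 (3.39e-09). It was 0.46 for TEAD2 (1.07e-07) and 0.42 for TEAD1 (5e-21). The calls of YAP1 and AJUBA were each lost when some single libraries were left out, as given above. TEAD1 also differed between the CoCl2 doses, by 0.18 (adjusted p 3.72e-16).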

How the results depend on the processing

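Of 1379 recomputed values of the 10 genes, 1314 kept their direction and their side of the threshold, 46 lost a call, 3 gained one and 16 changed sign. The calls of WWTR1, CCN1, CCN2 and AMOTL2 in the labelled knockouts held under every alternative run. In DESeq2, 2 of the 10 genes were called at 50 µM in place of 4, and 1121 genes in all at 10 µM in place of 3098. With 1 coefficient for all knockout libraries, 256 genes were called in place of 2656. In that fit 6 of the other targets were lower in place of 13, 1 of the cascade genes in place of 5 and 3 of the SRF targets in place of 8, and 0 SRF targets were higher in place of 1. TEAD4 then had a value of 0.012 in place of -0.012. With batch 2 counts halved, AJUBA in knockout 1 was at 0.00015 in place of -0.0048. The replicate numbers did not pair the samples (correlations -0.036 to 0.074). With them as a replicate block, 5, 8 and 7 of the 10 genes were called in knockouts 1, 2 and 3 in place of 6, 8 and 8, losing TEAD2 (adjusted p 0.0568) and TEAD4 (0.0501). The cause of these changes was not tested.

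Leaving out each library in turn gave 0 to 1 of the 10 genes at 10 µM, 2 to 4 at 50 µM, 5 to 8 in knockout 3 and 1 to 3 between knockouts 3 and 1. The counts over all genes were 1860 to 3291 at 10 µM, 1375 to 2586 in knockout 1, 2406 to 3766 in knockout 2, 1568 to 2615 in knockout 3, 1587 to 2703 in their average and 564 to 1184 between knockouts 3 and 1. In the average, 0 to 1 cascade genes and 0 to 1 SRF targets were higher. Values that changed sign, none of them called, ranged as follows. TEAD4 was at -0.062 to 0.038 at 50 µM and -0.08 to 0.054 in the average, and TEAD1 at -0.087 to 0.052 in knockout 1 and -0.045 to 0.094 in the average. AJUBA was at -0.098 to 0.095 in knockout 1, and WWTR1 at -0.048 to 0.34 between the doses. Between knockouts 3 and 1, YAP1 was at -2.48 to 0.046, CCN2 at -0.51 to 0.21 and LATS2 at -0.035 to 1.99, and between knockouts 3 and 2 LATS2 was at -0.24 to 0.12. Depth limits YAP1, LATS2 and, in batch 1, CCN2.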

Other observations

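Targets of SRF and its cofactors MRTF, the actin-regulated factors whose targets overlap those of YAP and TAZ, were tested in both batches (15 of 16 listed genes, MYL9 being at 0 in every library). Averaged over the labelled knockouts, 8 fell and 1 rose, against 11.4% of all genes lower and 7.54% higher. ACTA2, which encodes smooth muscle actin, had 19.9 and 21.2 CPM in WT, 6.26 and 5.77 in knockout 1, 9.65 and 10.1 in knockout 2, and 5.26 and 3.84 in knockout 3, and fell by 1.66 (SE 0.08, adjusted p 4.6e-49) on the log2 scale. TAGLN, which encodes transgelin, fell by 2.05 (SE 0.14, adjusted p 5.31e-32), FOS by 1.05 (SE 0.08, adjusted p 2.16e-30) and VCL, which encodes vinculin, by 0.27 (SE 0.04, adjusted p 7.75e-11). The average of FOS rests mostly on knockout 2. FOS had a mean of 23.3 CPM in WT and of 19.3, 3.4 and 21.5 CPM in knockouts 1, 2 and 3. With 1 coefficient for all knockout libraries, FOS (-0.66, adjusted p 0.764) and VCL (-0.27, adjusted p 0.15) were not called.

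At 50 µM CoCl2, 5 of the 15 rose and 5 fell, or 66.7% of the list, which is near the 61.4% of all genes called. The immediate early gene EGR1 fell by 1.78 (SE 0.03, adjusted p 2.41e-116) and FOS by 0.95 (SE 0.03, adjusted p 6.03e-73). Of the actin genes, ACTB fell by 0.17 (SE 0.01, adjusted p 9.58e-26) and ACTG1 rose by 0.15 (SE 0.01, adjusted p 2.28e-22), while ACTA2 had a value of 0.055 (adjusted p 0.884).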
